A study of Mus musculus with 9 samples.

Results

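The 10 genes described here are Nfe2l2, Keap1, Nqo1, Hmox1, Gclc, Gclm, Txnrd1, Srxn1, Slc7a11 and G6pdx, the genes of the Nrf2 pathway and of glutathione synthesis. They were taken by symbol from a table of 55276 gene symbols, by a rule that holds no threshold on a measured value. All 10 members passed the filter on low counts, as did 17672 genes in all. The cells were PPTR cells, a mouse intrahepatic cholangiocarcinoma line derived from liver cancer organoids and grown in 2 dimensions in medium with serum. The line carries Prom1CreERT2, a tamoxifen-dependent Cre driven by the Prom1 gene, together with floxed alleles that include the p53 gene (Tp53flx/flx) and the Rosa-ZsGreen reporter. Vcam1ctrl cells, labelled WT, carry the same alleles as the knockout cells. Vcam1KO1 and Vcam1KO2 are single-cell clones of that line made with Cas9 and a guide against exon 2 of Vcam1, a cell adhesion receptor. Each clone therefore stands for a single founder cell, and a difference between a clone and the control may belong to the clone or to the loss of Vcam1, which cannot be told apart. Each condition was sequenced in 3 libraries, 9 in all, taken from different passages, and nothing in the sources used here says that the passages were separately derived cultures.

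Nrf2, the product of Nfe2l2, is a transcription factor that turns on genes against oxidative and electrophilic stress. In unstressed cells Keap1 binds it and hands it to a Cul3 ubiquitin ligase for destruction, so that much of its regulation takes place on the protein and not on its messenger RNA. Its targets supply glutathione, the main small thiol of the cell, which the liver and bile ducts use to detoxify reactive compounds. Slc7a11 brings in cystine, the oxidized form of cysteine, and glutamate-cysteine ligase, made of the catalytic subunit Gclc and the modifier subunit Gclm, joins cysteine to glutamate in the first step of glutathione synthesis.

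Vcam1 was read first as a check of the labels and stood at 221 to 329 CPM (read pairs of a gene relative to the size of its library, scaled with TMM factors) in Vcam1ctrl, at 92.4 to 128 CPM in Vcam1KO1 and at 83.0 to 119 CPM in Vcam1KO2. The study reported that both clones had lost Vcam1 expression, by quantitative RT-PCR and by flow cytometry. RNA counts of the whole gene do not measure the protein. Library totals ran from 53415907 to 125223073 counts. Of 9 biliary markers, all 9 exceeded 1 CPM in every Vcam1ctrl library but 3 did so in each clone, among them Sox9 and Spp1. The summed level of the 9 was 13110 to 14840 CPM in Vcam1ctrl, 10620 to 11080 CPM in Vcam1KO1 and 7634 to 11080 CPM in Vcam1KO2, mostly from Spp1 in the clones, which went from 2066 to 3133 CPM in Vcam1ctrl to 7459 to 10797 CPM in the clones. Krt19, a keratin of bile duct cells, went from 2129 to 2406 CPM to 0.226 CPM or less. Cftr stayed at 3 counts or fewer in every library of both clones, as did Epcam and Krt18 in Vcam1KO2. Of 10 fibroblast and stellate cell markers, 7 exceeded 1 CPM in every Vcam1ctrl library and 9 did so in each clone, and their summed level was 431.2 to 836.8 CPM in Vcam1ctrl, 12560 to 15970 CPM in Vcam1KO1 and 6770 to 9110 CPM in Vcam1KO2. Col1a1 held the largest share of the sum in the clones, and Dcn went the other way in Vcam1KO1, from 58.3 to 105 CPM in Vcam1ctrl to 2.16 to 8.35 CPM. Hepatocyte markers summed to 251.7 to 440.4 CPM in Vcam1ctrl and to 3.017 CPM or less in the clones, where Hnf4a and Serpina1a were at 3 counts or fewer in every library. The sum in Vcam1ctrl came mostly from Hnf4a (207 to 264 CPM) and Ttr (35.4 to 138 CPM), and Cps1 was at 3 counts or fewer there. These marker changes ran with every comparison of a clone with the control below, and their part in those results was not tested. Because RNA was taken from whole cultures, fewer cells of a type and less RNA per cell cannot be told apart. The third library of each clone differed more from the other 2 of its clone than these did from each other, with a chi-square per degree of freedom of 280.3 and 328 in Vcam1KO1 and of 188.4 and 128.2 in Vcam1KO2 against 42.01 and 40.33 between the remaining pairs. The control pairs gave 137.7, 100.4 and 192.5, so that the values of Vcam1KO2 lay within the range of the control pairs. The third library of Vcam1KO1 held 27.7 CPM of the proliferation gene Mki67 where the others held 216 and 239 CPM, and that of Vcam1KO2 held 332 CPM where the others held 178 and 180 CPM.

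Promoter sequences are shown for Slc7a11, the gene with the largest difference between the clones, for Gclm and G6pdx, whose windows hold the core of the antioxidant response element, and for Asns, a target of the stress factor Atf4 that is compared with Slc7a11 further on. Each is the 250 bases before the transcription start in RefSeq (GRCm38.p6), and windows were found for 8 of the 10 genes, with none used here for Hmox1 and Gclc. A pair of short motifs was searched on both strands. These were TGACNNNGC, the core of the antioxidant response element to which Nrf2 binds with small Maf proteins, and TGATGNAA, the core of the C/EBP-ATF response element to which Atf4 binds. Capitals mark the matches.
Slc7a11 (chr3:50443614-50443863, minus strand): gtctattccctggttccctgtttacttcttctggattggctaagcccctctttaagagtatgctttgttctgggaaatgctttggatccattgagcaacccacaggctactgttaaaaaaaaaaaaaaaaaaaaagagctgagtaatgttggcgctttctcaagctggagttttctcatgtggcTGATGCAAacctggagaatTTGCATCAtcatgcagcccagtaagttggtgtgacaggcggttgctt
Gclm (chr3:122245307-122245556, plus strand): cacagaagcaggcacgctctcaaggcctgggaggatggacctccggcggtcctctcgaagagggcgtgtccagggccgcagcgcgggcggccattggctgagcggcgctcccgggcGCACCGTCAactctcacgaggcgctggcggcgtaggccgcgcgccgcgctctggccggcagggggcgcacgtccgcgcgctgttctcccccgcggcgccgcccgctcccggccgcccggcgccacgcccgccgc
G6pdx (chrX:74428881-74429130, minus strand): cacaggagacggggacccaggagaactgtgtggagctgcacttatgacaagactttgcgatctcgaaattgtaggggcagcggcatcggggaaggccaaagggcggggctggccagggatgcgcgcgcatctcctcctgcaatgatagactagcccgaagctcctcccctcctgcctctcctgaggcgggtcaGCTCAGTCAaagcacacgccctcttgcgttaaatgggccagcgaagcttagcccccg
Asns (chr6:7693210-7693459, minus strand): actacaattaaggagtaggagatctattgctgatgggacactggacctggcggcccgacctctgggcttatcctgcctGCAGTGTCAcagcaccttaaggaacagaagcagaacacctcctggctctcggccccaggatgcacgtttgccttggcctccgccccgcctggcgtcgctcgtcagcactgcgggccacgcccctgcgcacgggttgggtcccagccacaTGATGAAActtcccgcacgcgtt

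TGACNNNGC was found in 4 of the 8 members with a window (4 of their 10 windows), and in 10.2% of all 32851 windows. It began 134 bases before the start of Gclm, 57 before that of G6pdx, 240 before that of Nfe2l2 and 92 before that of the second of the windows of Txnrd1. TGATGNAA was found in 1 of the 8, in Slc7a11, and in 3.45% of all windows. Slc7a11 held it on the plus strand of the window at 66 bases before the start and again on the opposite strand at 47 bases. Of 13 genes in a list of Atf4 and its targets, 11 had a window and 4 of these held TGATGNAA. TGACNNNGC was also found in that list, on the opposite strand, at 172 bases before the start of Asns and 53 before that of Phgdh. A match of letters is a description and does not show that a factor was bound in these cells.

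The 6 clone libraries are repeats of 2 clones and not 6 separate knockouts. The comparison of both clones together with the control takes them as a single group. A call there need not hold in each clone, and a gene called in each clone may lack it. In the 6 Vcam1KO libraries against the 3 Vcam1ctrl libraries, 4 of the 10 genes passed an adjusted p of 0.05 in edgeR's quasi-likelihood test, where 42.8% of all tested genes did. Nqo1 was lower (21.2% of all genes were), and Keap1, Hmox1 and G6pdx were higher (21.6%). In 4 genes the 2 sets of libraries did not overlap, namely Keap1, Nqo1, Slc7a11 and G6pdx, and 44.2% of all tested genes were separated in this way. In Vcam1KO1 alone, 6 of the 10 genes passed (59.8% of all genes), of which 2 were higher (29.9%) and 4 lower (29.9%). In Vcam1KO2 alone, 6 also passed (51.3% of all genes), of which 4 were higher (25.2%) and 2 lower (26.1%). In these reported comparisons with the control, the shares of called genes among the 10 were thus near those of the whole table. The 2 clones were compared with the same 3 control libraries. The median log2 fold change of the 10 genes was 0.23 in Vcam1KO cells, -0.14 in Vcam1KO1 and 0.45 in Vcam1KO2, and that of all tested genes was 0.07, 0.02 and 0.00. Without the third library of both clones, an alternative chosen after seeing the data, the calls numbered 3 in Vcam1KO, 6 in Vcam1KO1 and 8 in Vcam1KO2. Of all 18432 genes tested in that setting, 7852, 10826 and 9621 were called.

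**Figure D1:**
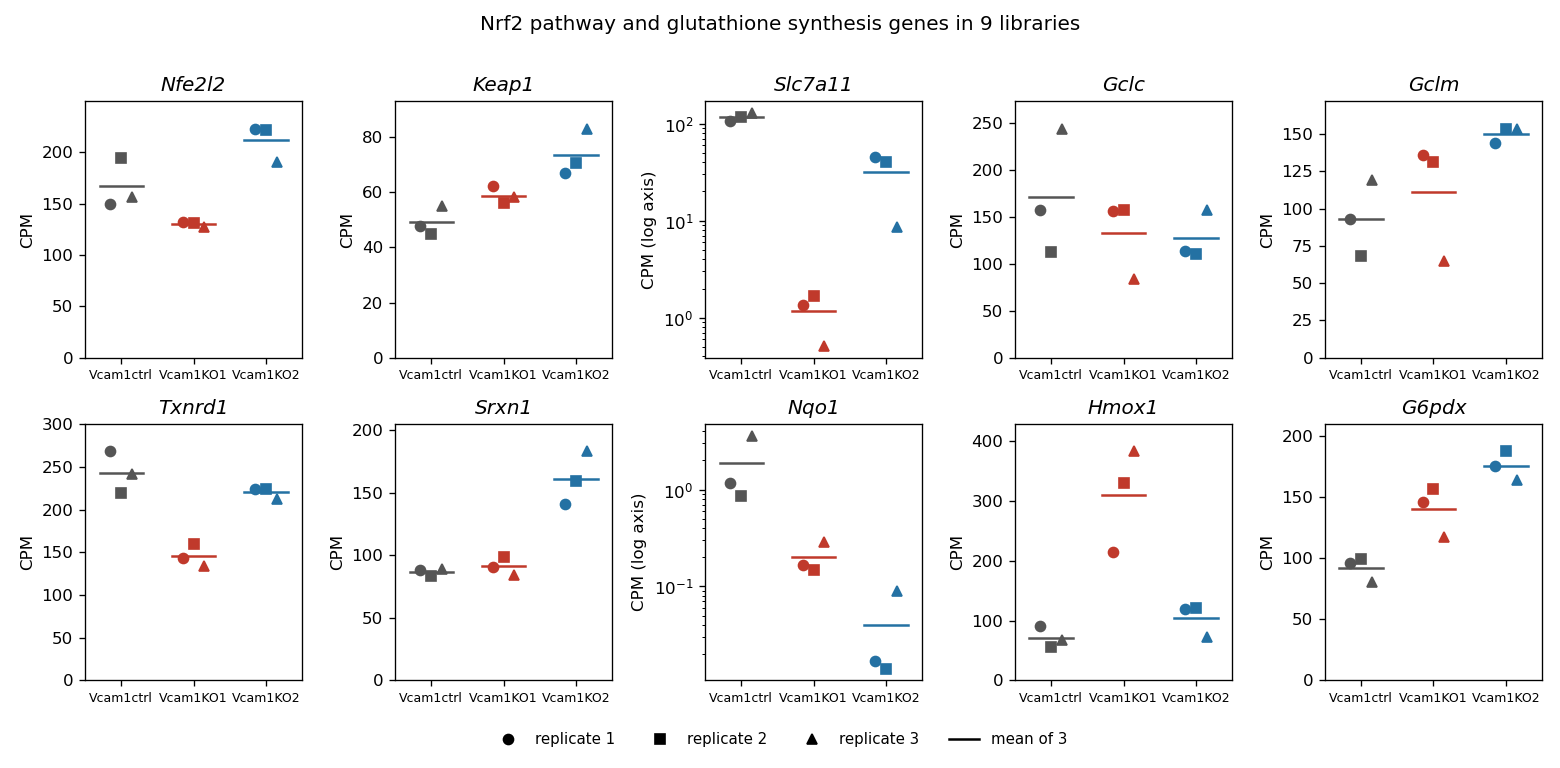
Level of each of the 10 genes in CPM (vertical axis) in the 9 libraries, grouped by condition on the horizontal axis, with the mean of each group as a line. Slc7a11 and Nqo1 are on log axes. Slc7a11 lies between 106 and 128 CPM in Vcam1ctrl and between 0.511 and 1.68 CPM in Vcam1KO1, and the third library of Vcam1KO2 falls to 8.71 CPM.

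The regulators Nfe2l2 and Keap1 were present in every library. Nfe2l2 (chromosome 2, 75675513 to 75704641, minus strand, GENCODE vM21 on GRCm38) measured 150, 195 and 156 CPM in Vcam1ctrl, 132, 131 and 128 CPM in Vcam1KO1 and 223, 222 and 191 CPM in Vcam1KO2. The clones thus lay on opposite sides of the control. The log2 fold change was -0.36 in Vcam1KO1 (standard error 0.12, adjusted p = 0.0294, edgeR) with no overlap, and 0.34 in Vcam1KO2 (standard error 0.12, adjusted p = 0.0394, edgeR), where the lowest clone library fell just under the highest control. Over both clones Nfe2l2 gave 0.04 (standard error 0.23, adjusted p = 0.914, edgeR). The call in Vcam1KO1 was lost without replicate 2 or replicate 3 of that clone (adjusted p = 0.0695 and 0.0608 in edgeR), and the call in Vcam1KO2 was lost without replicate 1 or 3 of the control, replicate 1 or 2 of Vcam1KO2, or replicate 2 of Vcam1KO1 (adjusted p in edgeR between 0.057 and 0.157).

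Keap1, the adaptor that targets Nrf2 for degradation (chromosome 9, 21229730 to 21239361, minus strand), measured 47.9, 45.0 and 54.8 CPM in Vcam1ctrl, 62.1, 56.0 and 58.1 CPM in Vcam1KO1 and 67.1, 70.5 and 82.9 CPM in Vcam1KO2. Every clone library lay above every control library. The log2 fold change over both clones was 0.42 (standard error 0.14, adjusted p = 0.0389, edgeR), 0.58 in Vcam1KO2 (standard error 0.12, adjusted p = 0.00247, edgeR) and 0.25 in Vcam1KO1, which did not pass (standard error 0.12, adjusted p = 0.0873, edgeR). The call over both clones was lost on leaving out any 1 of the 3 control libraries, replicate 1 of Vcam1KO1 or any library of Vcam1KO2 (adjusted p in edgeR from 0.0533 to 0.22), while Keap1 in Vcam1KO1 passed without replicate 3 of the control (adjusted p = 0.0485).

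Slc7a11, the cystine and glutamate exchanger of the plasma membrane (chromosome 3, 49892526 to 50443614, minus strand), showed the largest fall of the 10 genes in Vcam1KO1. It measured 106, 117 and 128 CPM in Vcam1ctrl, 1.36, 1.68 and 0.511 CPM in Vcam1KO1 and 45.2, 40.3 and 8.71 CPM in Vcam1KO2. These values rest on 13261, 6361 and 10150 read pairs in Vcam1ctrl, on 91, 161 and 32 in Vcam1KO1 and on 2637, 2851 and 589 in Vcam1KO2. The 3 groups did not overlap. Vcam1KO1 retained 1.01% of the mean control level (log2 fold change -6.60, standard error 0.70, adjusted p = 4.9e-05, edgeR) and Vcam1KO2 26.8% (log2 fold change -1.90, standard error 0.56, adjusted p = 0.0187, edgeR). The clones also differed from each other, with a log2 difference, Vcam1KO1 minus Vcam1KO2, of -4.70 (standard error 0.65, adjusted p = 0.000723, edgeR).

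With both clones in 1 group, Slc7a11 gave a log2 fold change of -2.85 (standard error 1.19) and did not pass in edgeR (adjusted p = 0.0803). In that fit the distance between the clones counts as spread within the group. The average of the 2 clones' contrasts gave -4.25 (adjusted p = 6.12e-05, edgeR) and limma-voom gave -4.55 (adjusted p = 0.00567). Without replicate 1 of Vcam1KO2, Slc7a11 gave -3.50 over both clones in edgeR (adjusted p = 0.0517). Within Vcam1KO2 the third library held 20.4% of the mean of the other 2, and the fit that left it out gave -1.47 for that clone (adjusted p = 0.0111, edgeR). Leaving out replicate 3 of the control took Slc7a11 in Vcam1KO2 over the threshold (-1.83, adjusted p = 0.0526, edgeR).

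The 2 subunits of glutamate-cysteine ligase showed no call in any of the 4 comparisons. Gclc (chromosome 9, 77754535 to 77794485, plus strand) measured 157, 113 and 244 CPM in Vcam1ctrl, 157, 158 and 84.2 CPM in Vcam1KO1 and 113, 111 and 157 CPM in Vcam1KO2. All 3 groups overlapped, and the log2 fold change over both clones was -0.40 (standard error 0.27, adjusted p = 0.264, edgeR). Gclm (chromosome 3, 122245557 to 122270732, plus strand) measured 93.0, 67.9 and 119 CPM in Vcam1ctrl, 136, 131 and 64.8 CPM in Vcam1KO1 and 144, 153 and 153 CPM in Vcam1KO2. Vcam1KO2 lay above every control library, at 0.69 on the log2 scale (standard error 0.28, adjusted p = 0.0651, edgeR), and over both clones Gclm gave 0.48 (standard error 0.28, adjusted p = 0.19, edgeR). The calls of Gclm depended on single libraries. Without the third library of Vcam1KO1, Gclm passed over both clones (log2 fold change 0.63, adjusted p = 0.0181, edgeR), in Vcam1KO1 (0.53 from 0.25, adjusted p = 0.0427, edgeR) and in Vcam1KO2 (0.69, adjusted p = 0.00853, edgeR). It also passed in Vcam1KO2 without replicate 3 of the control (0.90, adjusted p = 0.0418, edgeR).

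Txnrd1 and Srxn1 act on protein thiols. Txnrd1, the cytosolic reductase that keeps thioredoxin reduced at the cost of NADPH (chromosome 10, 82833951 to 82897712, plus strand), measured 268, 220 and 242 CPM in Vcam1ctrl, 143, 160 and 134 CPM in Vcam1KO1 and 224, 224 and 212 CPM in Vcam1KO2. It fell in Vcam1KO1 to 59.9% of the control mean, with no overlap (log2 fold change -0.74, standard error 0.11, adjusted p = 0.000372, edgeR). In Vcam1KO2 the libraries overlapped with the control (-0.15, standard error 0.11, adjusted p = 0.31, edgeR). Srxn1, the sulfiredoxin that repairs overoxidized peroxiredoxins (chromosome 2, 152105516 to 152111376, plus strand), measured 88.0, 83.0 and 89.1 CPM in Vcam1ctrl, 90.6, 98.6 and 84.4 CPM in Vcam1KO1 and 141, 159 and 183 CPM in Vcam1KO2. Srxn1 rose in Vcam1KO2 without overlap (log2 fold change 0.89, standard error 0.12, adjusted p = 0.000165, edgeR), whereas Vcam1KO1 gave 0.07 (standard error 0.12, adjusted p = 0.607, edgeR).

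Nqo1, a quinone reductase often read as a marker of Nrf2 activity (chromosome 8, 107388225 to 107403206, minus strand), had the lowest level per length of the 10 genes in the control. It measured 1.16, 0.867 and 3.62 CPM in Vcam1ctrl, 0.165, 0.146 and 0.287 CPM in Vcam1KO1 and 0.0171, 0.0141 and 0.0887 CPM in Vcam1KO2. The read pairs behind these levels numbered 146, 47 and 286 in Vcam1ctrl, 11, 14 and 18 in Vcam1KO1 and 1, 1 and 6 in Vcam1KO2. The 3 groups did not overlap, and Nqo1 fell over both clones (log2 fold change -3.96, standard error 0.79, adjusted p = 0.00343, edgeR), in Vcam1KO1 (-3.25, standard error 0.67, adjusted p = 0.0023) and in Vcam1KO2 (-5.48, standard error 0.81, adjusted p = 0.000369). Its size depended on single libraries. Without replicate 3 of the control, the highest, the edgeR values were -3.08 over both clones, -2.37 in Vcam1KO1 and -4.60 in Vcam1KO2, and without replicate 3 of Vcam1KO2 the value in that clone was -6.81, all of them past the threshold. The mean level of Nqo1 did not meet a minimum of 1 CPM over the 9 libraries.

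Hmox1, which breaks down haem to biliverdin, iron and carbon monoxide (chromosome 8, 75093621 to 75100589, plus strand), moved the other way from Nqo1. It measured 90.2, 55.9 and 67.5 CPM in Vcam1ctrl, 215, 330 and 383 CPM in Vcam1KO1 and 119, 120 and 72.4 CPM in Vcam1KO2. Hmox1 rose in Vcam1KO1 without overlap, by 2.12 on the log2 scale (standard error 0.28, adjusted p = 0.000161, edgeR). In Vcam1KO2 the third library lay within the range of the control and the value was 0.55 (standard error 0.27, adjusted p = 0.122, edgeR), rising past the threshold to 0.73 without that library (adjusted p = 0.0492). Over both clones it passed at 1.54 (standard error 0.53, adjusted p = 0.0428, edgeR), with overlap, and that call was lost on leaving out any 1 library of the control or of Vcam1KO1 (adjusted p in edgeR from 0.0561 to 0.146).

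G6pdx, the first enzyme of the pentose phosphate pathway and a source of the NADPH that reduces glutathione and thioredoxin (chromosome X, 74409483 to 74429194, minus strand), rose in both clones. It measured 95.7, 98.9 and 80.2 CPM in Vcam1ctrl, 146, 157 and 117 CPM in Vcam1KO1 and 175, 187 and 164 CPM in Vcam1KO2, without overlap between any groups. The log2 fold change was 0.78 over both clones (standard error 0.16, adjusted p = 0.00363, edgeR), 0.61 in Vcam1KO1 (standard error 0.13, adjusted p = 0.00323) and 0.94 in Vcam1KO2 (standard error 0.14, adjusted p = 0.000318). G6pdx and Nqo1 passed the combined comparison whichever of the 9 libraries was left out.

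**Figure D2:**
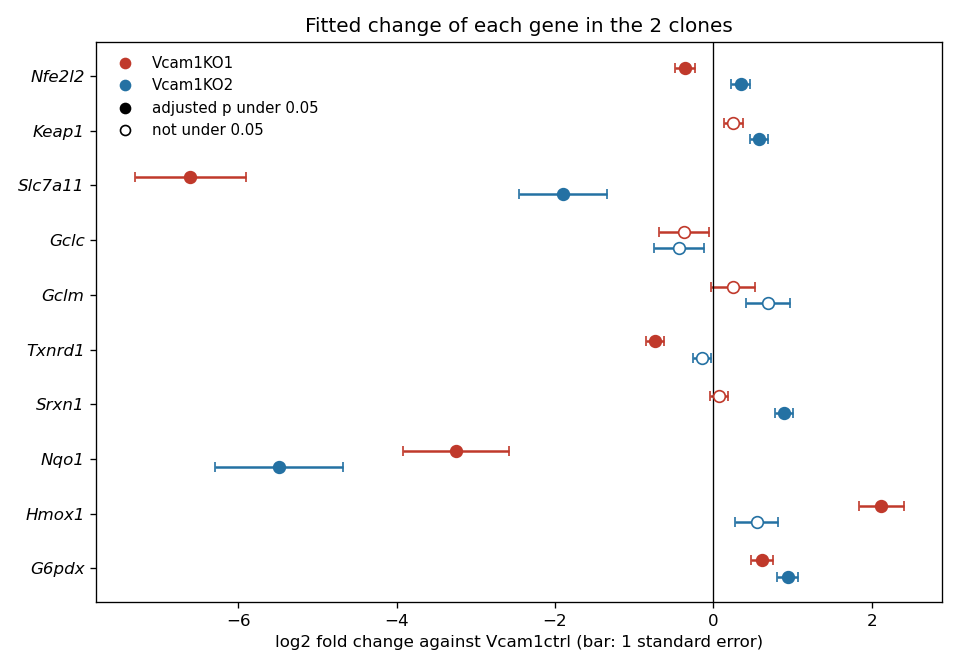
Fitted log2 fold change against Vcam1ctrl (horizontal axis, bars of 1 standard error) of the 10 genes in Vcam1KO1 and Vcam1KO2. Filled points passed an adjusted p of 0.05 in edgeR. Nqo1, Slc7a11 and G6pdx are filled and on the same side in both clones, and Nfe2l2 is filled on opposite sides, at -0.36 and 0.34.

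The clones were then set directly against each other, which is the test of whether the effects differ. Of the 10 genes, 5 passed (38.6% of all tested genes), with Hmox1 higher in Vcam1KO1 (20.2% of genes were higher) and Nfe2l2, Txnrd1, Srxn1 and Slc7a11 lower (18.5% were lower). The clones did not overlap in 9 of the 10 genes, all but Gclc, against 54.9% of all tested genes. The log2 differences, Vcam1KO1 minus Vcam1KO2, were 1.57 for Hmox1 (standard error 0.28, adjusted p = 0.0022, edgeR), -0.70 for Nfe2l2 (standard error 0.12, adjusted p = 0.00209), -0.59 for Txnrd1 (standard error 0.11, adjusted p = 0.00313) and -0.82 for Srxn1 (standard error 0.12, adjusted p = 0.000681). Nqo1 (2.23, standard error 0.85, adjusted p = 0.063, edgeR), Keap1 (-0.32, adjusted p = 0.0524) and G6pdx (-0.32, adjusted p = 0.0836) did not pass. Keap1 passed in edgeR without replicate 2 or 3 of the control or replicate 1 of Vcam1KO2 (adjusted p from 0.034 to 0.0476). Nqo1 passed without replicate 3 of the control (2.23, adjusted p = 0.0266) or replicate 3 of Vcam1KO2 (3.50, adjusted p = 0.039).

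Levels of different genes were compared per kilobase of merged exons over all annotated transcripts. That length can exceed the length of the transcripts expressed, and the order depends on it. Slc7a11 has 13922 bases of merged exons and Keap1 4693. In CPM without the length, the mean of Slc7a11 in Vcam1ctrl (117) lay above those of Gclm (93.3) and Keap1 (49.2). In Vcam1ctrl, Gclc (45.5 CPM per kilobase), Nfe2l2 (44.0) and Hmox1 (40.7) stood highest, then Txnrd1 (34.3), Srxn1 (30.7) and G6pdx (29.7), and each of these 6 overlapped with its neighbour in the order. Gclm (14.8) and Keap1 (10.5) overlapped with each other, and Slc7a11 (8.41) and Nqo1 (1.21) each lay below all libraries of the gene before it. In Vcam1KO1, Hmox1 stood highest at 177 ± 49.0 CPM per kilobase (SD, n = 3), above every library of the next gene, G6pdx (45.5 ± 6.66). Slc7a11 stood lowest there at 0.0851 ± 0.0434 and overlapped with Nqo1 at 0.128 ± 0.0494. In Vcam1KO2, Hmox1 (59.4 ± 15.6), Srxn1 (57.1 ± 7.42), G6pdx (57.0 ± 3.86) and Nfe2l2 (55.8 ± 4.77) overlapped, and Nqo1 (0.0258 ± 0.0272) stood below Slc7a11 (2.26 ± 1.42).

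**Figure D3:**
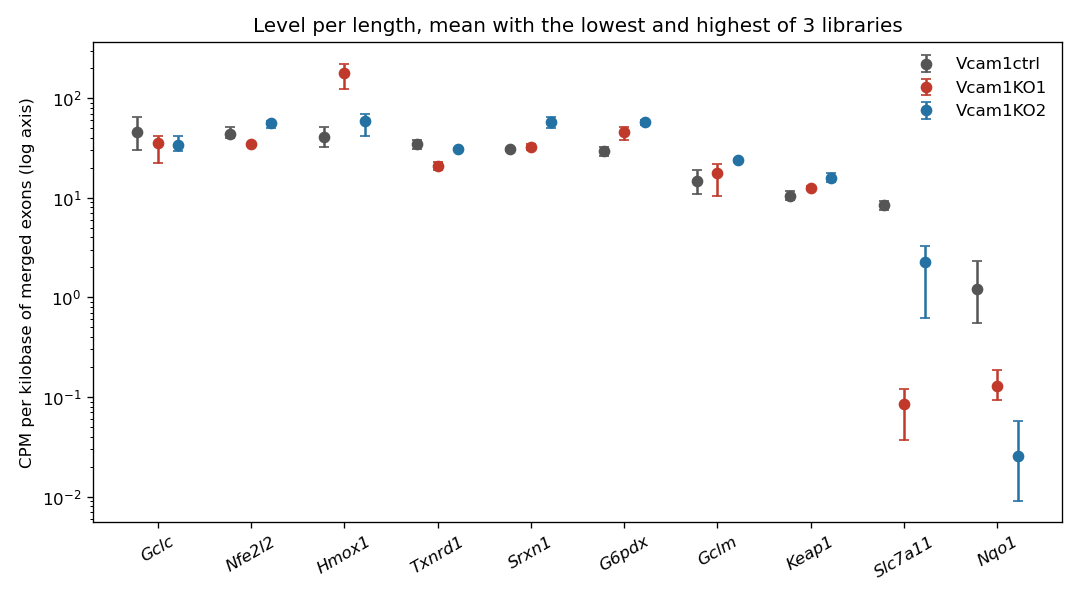
Level per kilobase of merged exons (vertical log axis, CPM per kilobase) of the 10 genes, in the order of the Vcam1ctrl means, with the mean of 3 libraries as a point and their lowest and highest values as the bar. Slc7a11 goes from 8.41 in Vcam1ctrl to 2.26 in Vcam1KO2 and 0.0851 in Vcam1KO1, while Hmox1 in Vcam1KO1 reaches 177.

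Slc7a11 is known to be driven by Atf4 as well as by Nrf2. Atf4 is a transcription factor of the response to amino acid shortage and stress in the endoplasmic reticulum. Atf4 itself measured 868, 1350 and 901 CPM in Vcam1ctrl, 244, 298 and 385 CPM in Vcam1KO1 and 534, 643 and 366 CPM in Vcam1KO2, and fell over both clones (log2 fold change -1.34, standard error 0.30, adjusted p = 0.00589, edgeR). Of the 13 genes in the list of Atf4 and its targets, 10 were lower and 0 higher in Vcam1KO1 (29.9% of all genes were lower), and 3 were lower and 0 higher in Vcam1KO2 (26.1%). Over both clones only Atf4 passed, with 0 genes higher and 1 lower (7.69% called against 42.8% of all tested genes). The median of the list was -1.20 on the log2 scale there, and the distance between the clones counts as spread in that fit. The median log2 fold change of the list was -2.11 in Vcam1KO1 and -0.56 in Vcam1KO2, and 9 of the 13 were lower in Vcam1KO1 than in Vcam1KO2 (18.5% of all genes).

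Trib3, Asns, Psat1 and Phgdh are shown from that list and were chosen after their values were seen. Trib3, a pseudokinase induced by Atf4, measured 318, 591 and 334 CPM in Vcam1ctrl, 4.84, 6.27 and 4.01 CPM in Vcam1KO1 and 163, 205 and 35.5 CPM in Vcam1KO2. Asns, asparagine synthetase, measured 355, 538 and 316 CPM in Vcam1ctrl, 46.7, 59.4 and 28.1 CPM in Vcam1KO1 and 330, 360 and 95.7 CPM in Vcam1KO2. Psat1 and Phgdh, enzymes of serine synthesis, fell in Vcam1KO1 by 2.64 and 2.11 on the log2 scale (adjusted p = 3.72e-05 and 3.2e-05, edgeR) and did not pass in Vcam1KO2 (-0.56 and -0.34). As for Slc7a11, the third library was the lowest of Vcam1KO2 in all 13 genes of the list, where 43.2% of tested genes had their lowest value in that library. In Vcam1KO1 the third library was the lowest in 7 of the 13, against 41.1% of tested genes. Atf4 itself was highest in that library, at 142% of the mean of the other libraries of the clone, whereas Slc7a11 was lowest, at 33.6%. In Vcam1ctrl, Atf4, Trib3 and Asns were highest in replicate 2 and Slc7a11 in replicate 3. Whether Atf4 had a part in the level of Slc7a11 was not tested.

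**Figure D4:**
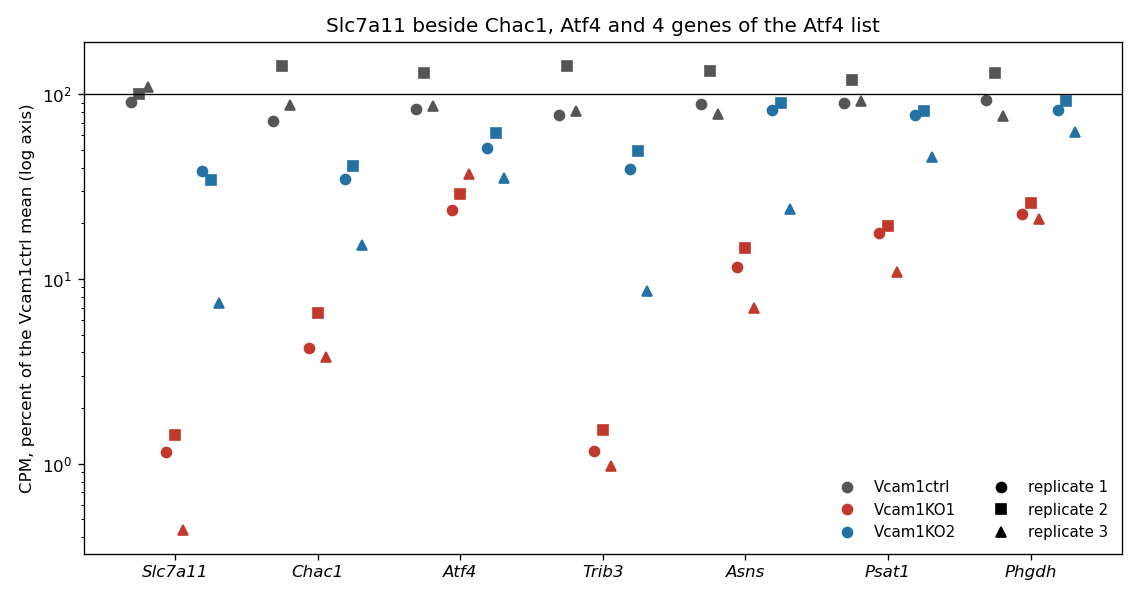
Level of 7 genes in each of the 9 libraries as percent of the Vcam1ctrl mean (vertical log axis). In Slc7a11, Trib3 and Asns the third library of Vcam1KO2 lies well under the other 2 of that clone (20.4%, 19.3% and 27.8% of their mean). In the same genes all Vcam1KO1 libraries lie under all Vcam1KO2 libraries. In Atf4 the clones overlap, with 385 CPM in replicate 3 of Vcam1KO1 and 366 CPM in replicate 3 of Vcam1KO2.

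Other genes of glutathione metabolism were read as lists. Of 22 tested genes of glutathione synthesis, reduction and use, 6 were higher and 8 lower over both clones, with a median log2 fold change of 0.05. That is 63.6% called, against 42.8% of all tested genes (21.6% higher and 21.2% lower), the shares to be read beside each list over both clones. Gss, the enzyme of the second step of synthesis, measured 76.8, 76.1 and 106 CPM in Vcam1ctrl, 27.9, 28.8 and 25.8 CPM in Vcam1KO1 and 36.8, 41.2 and 49.3 CPM in Vcam1KO2 (log2 fold change over both clones -1.30, standard error 0.22, adjusted p = 0.00124, edgeR). Gsr, which reduces oxidized glutathione, measured 140, 182 and 142 CPM in Vcam1ctrl, 67.5, 63.4 and 72.1 CPM in Vcam1KO1 and 75.8, 79.0 and 96 CPM in Vcam1KO2 (-1.03, standard error 0.15, adjusted p = 0.000488). Both fell in both clones. Chac1, which degrades glutathione and is also a target of Atf4, measured 84.7, 167 and 103 CPM in Vcam1ctrl, 4.99, 7.74 and 4.45 CPM in Vcam1KO1 and 41.2, 48.4 and 18.0 CPM in Vcam1KO2 (-2.51, standard error 0.75, adjusted p = 0.0232). Oplah, which returns oxoproline to glutamate, also fell (-2.38, standard error 0.32, adjusted p = 0.000327).

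Among the peroxidases of the same list, Gpx8, Gpx1 and Gpx4 rose, whereas Gpx3, chosen after its values were seen, fell (log2 fold change -3.44, adjusted p = 3.54e-05, edgeR). Gpx8, a glutathione peroxidase of the endoplasmic reticulum, measured 7.66, 7.14 and 3.30 CPM in Vcam1ctrl, 150, 139 and 129 CPM in Vcam1KO1 and 103, 110 and 104 CPM in Vcam1KO2 (log2 fold change over both clones 4.34, standard error 0.32, adjusted p = 9.83e-06, edgeR). Gpx1 gave 0.98 (standard error 0.14, adjusted p = 0.000415) and Gpx4, which reduces lipid peroxides, gave 0.48 (standard error 0.12, adjusted p = 0.0114). Slc3a2, the heavy chain with which the Slc7a11 protein pairs, measured 562, 605 and 569 CPM in Vcam1ctrl, 306, 398 and 531 CPM in Vcam1KO1 and 626, 659 and 315 CPM in Vcam1KO2, and did not pass (-0.29, standard error 0.26, adjusted p = 0.402). Its level in Vcam1KO2 was again lowest in the third library.

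Among 27 glutathione S-transferases and export pumps, 5 were higher and 11 lower over both clones (59.3% called against 42.8% of all tested genes), with a median of -0.71. Gstm7 and the microsomal Mgst1 rose (log2 fold change 1.54 and 1.42, adjusted p = 0.00401 and 0.00794, edgeR). Abcc2, the pump for glutathione conjugates at the canalicular membrane, measured 53.4, 54.1 and 71.9 CPM in Vcam1ctrl and 0.0319 to 0.840 CPM in the 6 clone libraries (-7.44, standard error 0.85, adjusted p = 0.000135). Gstp3 held 6813, 2411 and 4811 counts in Vcam1ctrl, 2 counts in a single library of each clone and 0 in the remaining 4 clone libraries. Gstp3 is a close relative of Gstp1 and Gstp2, between which kallisto may share reads. Of 18 other genes of detoxification, 5 were higher and 4 lower. Cbr3, a carbonyl reductase, and Akr1c14 rose (2.69 and 2.48, adjusted p = 1.77e-05 and 0.00235), and Ugdh, which makes UDP-glucuronic acid, fell (-1.89, adjusted p = 0.000108). Akr1b7, with 6279, 2196 and 6062 counts in Vcam1ctrl, had 0 counts in all Vcam1KO1 libraries, at least 1350-fold lower against a floor of 3 counts per library, and 51, 71 and 0 counts in Vcam1KO2.

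Of 16 thioredoxin and peroxiredoxin genes, 5 were higher and 4 lower over both clones, with a median log2 fold change of 0.02. Prdx1, which removes peroxides at the cost of thioredoxin, measured 1493, 1668 and 1668 CPM in Vcam1ctrl, 679, 637 and 636 CPM in Vcam1KO1 and 733, 759 and 705 CPM in Vcam1KO2 (log2 fold change -1.22, standard error 0.11, adjusted p = 3.48e-05, edgeR). Txnrd3 fell in both clones (-1.76, standard error 0.18, adjusted p = 6.62e-05). Txn1, the substrate of Txnrd1, fell in Vcam1KO1 (-0.75, adjusted p = 0.0057), gave 0.01 in Vcam1KO2 (adjusted p = 0.984) and did not pass over both clones (-0.32, adjusted p = 0.353). The sestrins, stress proteins that restrain mTORC1, split, with Sesn1 and Sesn3 higher (2.72 and 2.57, adjusted p = 0.000594 and 0.00285) and Sesn2 lower (-1.48, adjusted p = 0.00281).

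Of 14 other genes of NADPH supply, 3 were higher and 6 lower over both clones with a median of -0.52, and in Vcam1KO1 all 14 passed, 4 higher and 10 lower (59.8% of all tested genes passed there, 29.9% in each direction). In contrast to G6pdx, Pgd and Rpia of the pentose phosphate pathway fell. Pgd, the other NADPH-forming enzyme of that pathway, measured 361, 317 and 352 CPM in Vcam1ctrl, 231, 226 and 225 CPM in Vcam1KO1 and 189, 199 and 208 CPM in Vcam1KO2 (log2 fold change -0.69, standard error 0.11, adjusted p = 0.00086, edgeR), and Rpia gave -1.79 (adjusted p = 7.47e-05). Me1, malic enzyme, measured 555, 572 and 652 CPM in Vcam1ctrl, 124, 137 and 102 CPM in Vcam1KO1 and 160, 165 and 176 CPM in Vcam1KO2 (-2.04, standard error 0.17, adjusted p = 1.99e-05). Idh2 and Aldh1l1, which form NADPH in mitochondria and from folates, rose (1.36 and 2.39, adjusted p = 0.000171 and 4.08e-06).

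Of 11 tested genes of haem and iron handling, 1 was higher and 1 lower over both clones (18.2% called against 42.8% of all tested genes). In Vcam1KO1, where Hmox1 rose, 2 were higher and 1 lower (27.3% called against 59.8%). Fech, which inserts iron into haem, rose (log2 fold change 1.06, adjusted p = 0.000471, edgeR) and Tfrc, the transferrin receptor, fell (-0.94, adjusted p = 0.00349). Slc40a1, the iron exporter, chosen after its values were seen, rose in Vcam1KO1 (1.65, adjusted p = 0.000692, edgeR) and gave 0.04 in Vcam1KO2 (adjusted p = 0.91), and the clones differed (1.60, adjusted p = 0.00199). Of 4 genes that remove superoxide and hydrogen peroxide, Cat rose (1.19, adjusted p = 0.04) and Sod1 fell (-0.48, adjusted p = 0.00709) over both clones. In Vcam1KO1 alone 3 of the 4 were higher and 1 lower (29.9% of all tested genes in each direction). In Vcam1KO2 0 were higher (25.2% of all tested genes) and 2 lower (26.1%). Cat did not pass in Vcam1KO2 (0.46, adjusted p = 0.0861). Sod3, an extracellular superoxide dismutase, chosen after its values were seen, rose in Vcam1KO1 (0.50, adjusted p = 0.0195, edgeR) and fell in Vcam1KO2 (-2.05, adjusted p = 7.44e-06). Among 16 partners and regulators of Nrf2, 3 were higher and 2 lower with a median of -0.02. Btrc, a subunit of a second ubiquitin ligase of Nrf2, and Rbx1 rose (0.63 and 0.31, adjusted p = 0.000604 and 0.0466), and Maff, a small Maf protein, and the related factor Nfe2l1 fell (-2.00 and -0.75, adjusted p = 0.0137 and 0.00992). Cul3 (0.08, adjusted p = 0.636), Mafg (0.18, adjusted p = 0.536), the repressor Bach1 (-0.11, adjusted p = 0.833) and Sqstm1, which binds Keap1 (-0.58, adjusted p = 0.0754), did not pass over both clones, and Sqstm1 fell in Vcam1KO1 (-0.82, adjusted p = 0.0136).

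**Figure D5:**
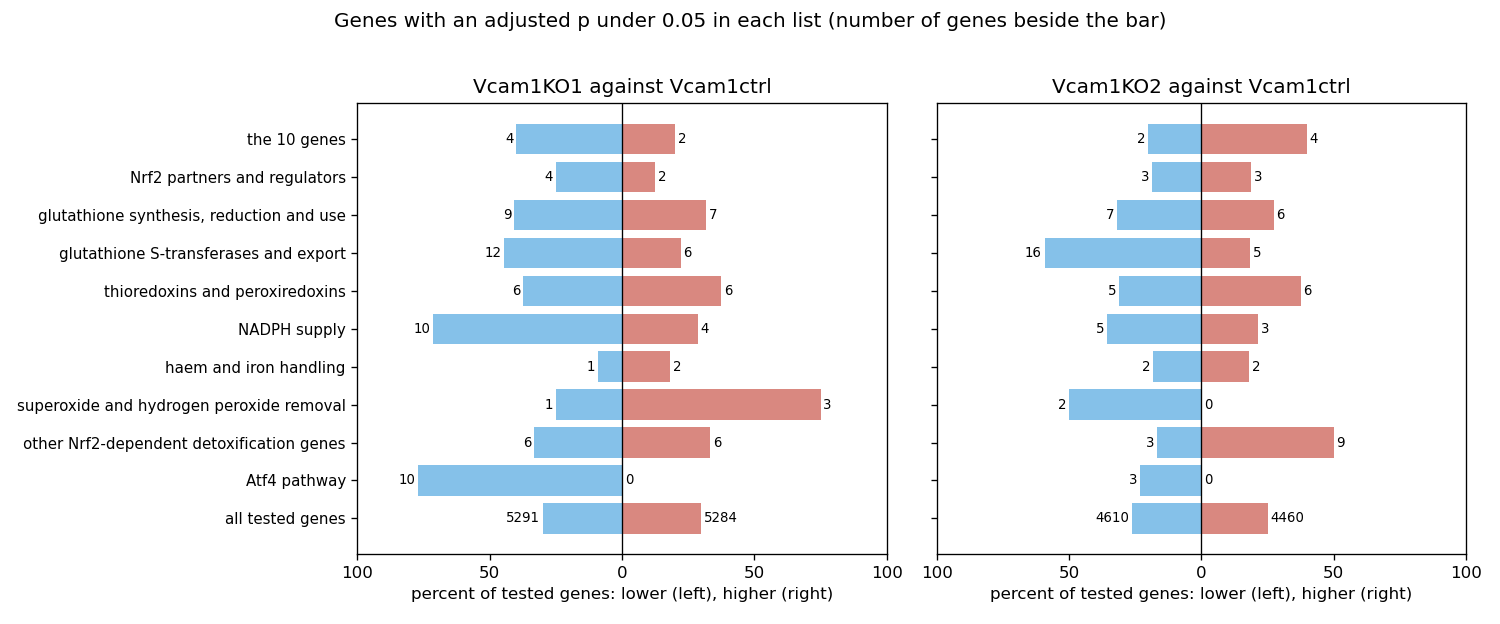
Percent of tested genes of each list with an adjusted p under 0.05 in edgeR in each clone against Vcam1ctrl (horizontal axis), lower to the left and higher to the right, with the number of genes beside each bar. The bottom bar is the whole table. In Vcam1KO1, 10 of 13 genes of the Atf4 list and 10 of 14 NADPH genes were lower, and in Vcam1KO2, 16 of 27 transferases and pumps were lower.

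Over the 141 tested genes of these lists, 29 were higher and 38 lower in the combined comparison, or 47.5% called. The share was 67.4% in Vcam1KO1 and 56.7% in Vcam1KO2. These shares lie a few points above those of all tested genes, 42.8%, 59.8% and 51.3%, and no test was made of the lists as a whole.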

How the data were processed

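RNA of Vcam1ctrl cells and of the clones Vcam1KO1 and Vcam1KO2 was read by the authors from 9 stranded libraries sequenced from both ends, 3 for each condition. Reads were pseudoaligned with kallisto 0.46.1 to GENCODE transcripts of GRCm38 (mm10 in the submitters' processing notes). The deposited table holds, for each gene symbol, the authors' estimated counts of read pairs, not normalized. All estimates were whole numbers and were used as counts. The step that summed transcripts to genes is not given in the sources used here. Reads of near-identical genes may have been shared between them. Libraries held 53415907 to 125223073 counts. The p-values measure the spread between passages, and in the combined comparison the distance between the clones adds to that spread. The combined comparison had no term for the clone and took the libraries of a clone as independent. Its p-values therefore do not measure the spread among separately made knockouts.

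Counts were filtered with filterByExpr, scaled with TMM and tested with edgeR 4.0.16 (R 4.3.3) by the quasi-likelihood test with Benjamini-Hochberg adjustment over 17672 genes, with a threshold of 0.05. The combined comparison used a fit with 2 groups over 9 libraries, and the other comparisons a fit with 3 groups. A floor of 3 counts per library was used for genes without counts. Alternatives were limma-voom (limma 3.58.1, the test of the study), DESeq2 1.42.0, other scalings and filters, a demand for a 1.5-fold change, averaging the contrasts of the clones, fits of 6 libraries and leaving out each library. Positions and exon lengths came from GENCODE vM21, another release than that of the counts, and promoters from RefSeq (GRCm38.p6).

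The members and lists were chosen with earlier results of these data known. Besides the 10 genes, those named per list are the 2 largest increases and 2 largest decreases of the combined comparison without overlap and with a mean of at least 5 CPM, a fixed set that includes Gss, Gsr, Prdx1, Me1, Pgd and Atf4, and the check genes. Trib3, Asns, Psat1, Phgdh, Gpx3, Slc40a1 and Sod3 fall outside this rule. A further gene read as a check of the line is not reported here.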

Additional observations from a re-analysis of the deposited data

Results flagged for a closer look

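The direct test between the clones passed for 5 of the 10 genes, so that their responses against the shared controls differed. The log2 fold change in Vcam1KO1 minus that in Vcam1KO2 was -4.70 for Slc7a11, 1.57 for Hmox1, -0.82 for Srxn1, -0.70 for Nfe2l2 and -0.59 for Txnrd1 (adjusted p between 0.000681 and 0.00313, edgeR's quasi-likelihood test). Nfe2l2 alone of these was on opposite sides of the control with a call in each clone. In Gclm, a single library lay far from the other 5 Vcam1KO libraries. Replicate 3 of Vcam1KO1 held 64.8 CPM where the others held 131 to 153 CPM, and its gap to the nearest made up 0.752 of the whole range. In Gclc the same library held 84.2 CPM, the lowest of the 9.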

How the results depend on the processing

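No paired analysis was possible because the labels give no replicate numbers shared between the groups. Over 715 single-gene values under the alternatives, 637 kept their direction and their side of the threshold, 40 lost a call, 22 gained one and 16 changed sign. The combined comparison called 4 of the 10 genes as reported, 2 with no filter on low counts and 1 (Nqo1) with the 1.5-fold demand. It called 7 with the average of the clones' contrasts (Txnrd1, Srxn1 and Slc7a11 beside the reported ones). On leaving out single libraries it called 2 to 4, and Gclm was gained in 1 case. Calls among all tested genes numbered 7555 of 17672 as reported and 7211 of 34314 with no filter. They numbered 10464 of 17672 with the average of contrasts and 5536 to 8193 on leaving out single libraries. The 1.5-fold demand gave 3 calls in place of 6 in Vcam1KO1 and 2 in place of 5 between the clones, and took the calls among all genes to 4388, 6893, 5333 and 3057 in the combined, Vcam1KO1, Vcam1KO2 and between-clone comparisons. Nfe2l2 over both clones turned to -0.0013 with limma-voom, -0.0031 with DESeq2, -0.0032 with RLE factors, -0.0023 with upper-quartile factors and -0.0065 with the average of contrasts, and ranged from -0.0788 to 0.118 on leaving out single libraries. Without single libraries Gclm in Vcam1KO1 ranged from -0.0015 to 0.525, Srxn1 in Vcam1KO1 from -0.0262 to 0.131 and Gclc between the clones from -0.115 to 0.306, none of them called in the reported fit. Slc7a11 in Vcam1KO2 lost its call with no filter (adjusted p = 0.0921) and Nfe2l2 in Vcam1KO2 with no filter or upper-quartile factors (0.0903 and 0.0702). Hmox1 over both clones lost its call with limma-voom (0.0586) and Keap1 with RLE factors (0.0652). The cause was not tested. Low counts limit Nqo1 in Vcam1KO2, which rests on 1, 1 and 6 read pairs.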

Other observations

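The balance of the 2 subunits of glutamate-cysteine ligase was looked at after the values were seen. The ratio of Gclm to Gclc counts was 0.591, 0.601 and 0.488 in Vcam1ctrl, 0.870, 0.833 and 0.770 in Vcam1KO1 and 1.27, 1.38 and 0.975 in Vcam1KO2. The 3 groups did not overlap in this ratio, although Gclc overlapped between all groups and neither subunit passed the test in any comparison. In replicate 3 of Vcam1KO1 both subunits were low, Gclc at 53.6% and Gclm at 48.4% of the mean of the other 2 libraries, and their ratio was the lowest of that clone. The ratio compares counts of genes of different length, so only its change between groups can be read, and it was not tested.

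Trp53 transcripts were present in all 9 libraries of this line with floxed alleles of that gene, at 130 to 284 CPM. Gene-level counts do not separate the floxed exons from the rest. Prom1, whose promoter drives the Cre, had 22 counts or fewer in every library.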
